A study of Ooceraea biroi with 96 samples.

Results

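The genes described here lie near the ends of the chromosomes of the clonal raider ant, Ooceraea biroi. For 13 chromosomes, all but chromosome 13, they were selected on position and level, as the genes within 300 kb of the lowest gene start or of the highest gene end on the sequence, with a mean of at least 0.5 CPM (read counts scaled to the total of the library) in at least 1 of the 8 groups of the study. This gave 478 of the 13755 features in the deposited table, spread over 26 ends, and they are called chromosome-end genes below. The window held 676 genes of any level, of which 198 stayed under 0.5 CPM in every group, 50 of them with no count in any library. That share, 29.3%, stood beside 27.5% of the 12523 other genes on the same chromosomes. Distance is counted from the outermost annotated gene boundary of each sequence, so it is not the distance to a telomere or to the end of the assembled sequence.

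The study profiled whole brains of single ants by RNA sequencing, in 96 libraries. Ants of 2 clonal lineages, M and B, were moved as newly hatched larvae into M or B colonies, which separates the genotype of the ant from that of its social environment. At an age of 8 days there were 14 M ants in M colonies (MinM), 12 M ants in B colonies (MinB), 10 B ants in M colonies (BinM) and 10 B ants in B colonies (BinB). At an age of 1 day there were 20 MinM, 14 MinB, 9 BinM and 7 BinB ants. Each lineage is a clone, so a difference between M and B is a difference between 2 clones. The labels do not tie ants to colonies, and p-values treat each ant as independent.

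Telomeres cap the ends of chromosomes, and the stretches next to them, the subtelomeres, are rich in repeated sequence in many eukaryotes. Subtelomeres often change quickly between related genomes, by duplication, loss and exchange of segments, and reads from such sequence can be hard to place. Clonal raider ants have no queens, and workers lay unfertilised eggs in which products of a single meiosis fuse, a form of reproduction in which crossing over can leave chromosome segments homozygous. The annotation holds identifiers without product names, so the function of the genes named below is not given, and the labelled tissue could not be checked against brain markers.

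Library totals ranged from 10695583 to 26955040 counts at day 8 (median 15107482) and from 13904275 to 25341535 counts at day 1 (median 17683315). The 478 genes took between 4.48% and 7.29% of the counts of a library, and between 4.45% and 4.87% once LOC105279483, described below, was left out. By the median rank correlation of a library with the others of its age, 9 libraries stood apart, 5 at day 8 and 4 at day 1. Results are for all 96 libraries, and counts of calls without these 9 are given where they moved.

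Of the 478 genes, 457 are annotated as protein coding, 19 as long noncoding RNA (lncRNA), 1 as miscellaneous RNA and 1 as ribosomal RNA. LncRNAs were 3.97% of them, against 5.68% of the 9078 other expressed genes on the same chromosomes. Their median genomic span was 4373 bp, against 4821 bp for the other genes, and 64.0% overlapped no other gene on either strand, against 58.7%. Per length, their median level over the groups was 13.8 RPKM (reads per kb of exon, scaled to the library total), against 13 RPKM for the other genes. Transcription ran away from the chromosome end for 249 of the 478 (52.1%). An end held between 2 genes (the high-coordinate end of chromosome 12) and 40 genes (that of chromosome 6), with a median of 16.5. In levels, lengths and classes the 2 sets lay close together, and none of these differences was tested.

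The window and the CPM minimum chose these genes. Just inside the window lay LOC105277443 on chromosome 3, at 299.4 kb, and just outside it LOC105276113 on chromosome 9, at 300.1 kb. Just over the minimum stood LOC113561661, with a highest group mean of 0.51 CPM, and just under it LOC105286014, with 0.495 CPM. Most genes did not depend on 1 group to enter. In groups of both genotypes, 460 passed the minimum, while 9 passed through M groups alone and 9 through B groups alone. At both ages 452 passed, 7 at day 8 alone and 19 at day 1 alone. Genes that passed through 1 genotype alone had to differ between the genotypes to some extent, so the counts of genes called between genotypes are also given without them.

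The first comparison asked how brains of genotype M differed from brains of genotype B. A gene was called where the adjusted p of edgeR's quasi-likelihood test was under 0.05, with the adjustment over all genes tested at that age. At day 8, 43 of 451 chromosome-end genes tested were called (9.53%), 17 higher and 26 lower in M, beside 8.45% of all genes tested (4.16% higher, 4.29% lower). At day 1, 83 of 468 were called (17.7%), 35 higher and 48 lower in M, beside 14.8% of all genes (7.24% higher, 7.52% lower). Without the genes that passed the CPM minimum in 1 genotype alone, 39 of 446 were called at day 8 (8.74%) and 78 of 456 at day 1 (17.1%), beside 8.09% and 14.5% of all genes under the same limit. Without the 9 libraries that stood apart, the split at day 8 was 18 higher and 33 lower in M, and at day 1 it was 35 higher and 33 lower. These shares were near those of the whole genome. In whole brains, more cells of a type and more RNA per cell cannot be told apart. Most differences were small: 27 of the 43 and 59 of the 83 called genes differed by less than 1.5-fold. Of all genes called, 561 of 800 at day 8 and 1113 of 1452 at day 1 did so. The median log2 fold change of all the chromosome-end genes tested was 0.01 at day 8 and -0.008 at day 1, beside 0.011 and 0.003 for all genes.

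The ants of the 2 ages are different individuals, so a difference seen at both was seen in separate libraries. At both ages and with the same sign, 28 of the 448 chromosome-end genes tested at both were called (6.25%), 10 higher and 18 lower in M, and none was called with opposite signs. Of all genes, 3.77% were called in this way (1.75% higher, 2.02% lower), and of the other genes on the same chromosomes 285 of 8613 (3.31%). Without the genes that passed the CPM minimum in 1 genotype alone, 24 of 443 were called at both ages (5.42%). Under the same limit it was 261 of 8568 (3.05%) of the other genes on the same chromosomes. Without the 9 libraries, 30 of 448 genes were called at both ages (6.70%, beside 4.52% of all genes), 9 higher and 21 lower in M. Of the 28, 26 were among these 30. In that fit LOC105277462 had an edgeR adjusted p of 0.0518 at day 1, and LOC113563597 was not tested at day 8. The mean fold change over the ages was at least 2-fold for 8 genes (1.79% of those tested, beside 0.978% of all genes), 4 in each direction. Of these 8, LOC105285038, LOC105280910, LOC113563597 and LOC105281480 passed the CPM minimum only through the genotype in which they were high. Without such genes it was 4 of 443 (0.903%), beside 0.642% of all genes under the same limit. The change was under 1.5-fold for 14 (3.12%, beside 2.03%). Among those 448, a further 53 passed at day 1 but not at day 8 (11.8%, beside 11% of all genes), and 15 passed at day 8 but not at day 1 (3.35%, beside 4.49%). Another 2 were called at day 1 and not tested at day 8.

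**Figure D1:**
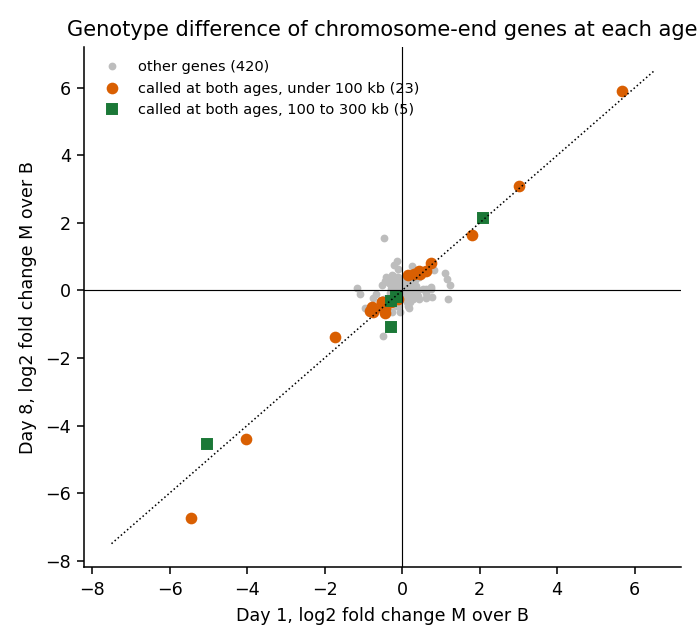
Log2 fold change of M over B at day 8 (vertical axis) against that at day 1 (horizontal axis) for the 448 chromosome-end genes tested at both ages. Orange circles are the 23 genes called at both ages under 100 kb from an end, green squares the 5 called farther in, grey points the other genes, and the dotted line marks equal values. The called genes lie near that line, from a mean log2 fold change of -6.09 to 5.79.

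Within the window the genotype differences shared by both ages lay mainly in the outer 100 kb. Under 100 kb from the outermost gene boundary, 23 of 174 genes were called at both ages (13.2%), 9 higher and 14 lower in M. Between 100 and 200 kb 2 of 151 genes were called (1.32%), and between 200 and 300 kb 3 of 123 (2.44%). Farther in, the share was 3.45% between 300 and 600 kb, 5.36% between 600 and 1000 kb, 2.89% between 1000 and 2000 kb and 3.21% beyond. The first 25 kb held 10 of the 28 genes, among 43 tested. The distance classes were chosen after the values were seen, and no test was made of them.

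**Figure D2:**
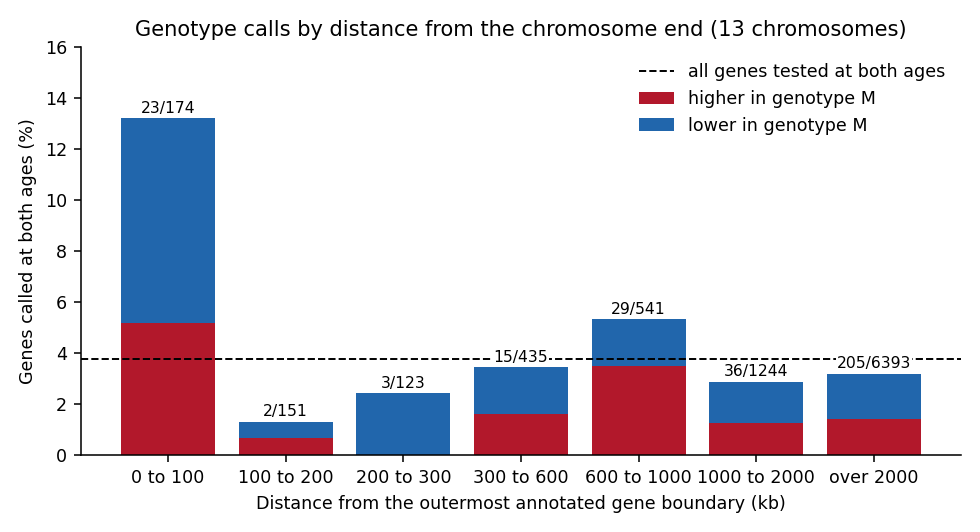
Share of genes called between genotypes M and B at both ages with the same sign (percent, vertical axis) by distance from the outermost annotated gene boundary (kb, horizontal axis), over 13 chromosomes. Red is higher in M, blue lower in M, labels give genes called over genes tested, and the dashed line is the 3.77% of all genes. The outer 100 kb stands at 13.2% and the other classes between 1.32% and 5.36%.

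The share in the outer 100 kb did not come from 1 end. Calls were made at 13 of the 23 ends that had a gene tested there. Without the start of chromosome 12 it was 18 of 162 (11.1%), and without the starts of chromosomes 11 and 12 it was 16 of 159 (10.1%). Among genes whose span overlapped no other gene, 19 of 114 were called (16.7%), beside 21 of 287 (7.32%) over the whole window, which includes them. The share of such genes farther in was not computed. Among genes that passed the CPM minimum in both genotypes, 21 of 171 were called (12.3%). The share by the same limit was 1.10% (3 of 272) between 100 and 300 kb, and 3.05% (261 of 8568) among the other genes of the 13 chromosomes. Under 50 kb the count was 13 of 84 (15.5%), and between 50 and 100 kb 10 of 90 (11.1%).

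Shares by age and colony type come from the same libraries as the counts at both ages. Under 100 kb, 15.4% of genes were called between M and B at day 8 and 24.9% at day 1, beside 8.45% and 14.8% of all genes. At day 8, the outer 100 kb had 12% called within B colonies (MinB over BinB) and 11.4% within M colonies (MinM over BinM), beside 3.03% and 3.53% of all genes. At day 1 it had 17.1% within B colonies and 11.6% within M colonies, beside 9.95% and 3.54% of all genes. The median highest group mean was 33.1 CPM under 100 kb, 51.4 CPM between 100 and 200 kb, 45.9 CPM between 200 and 300 kb and 35.9 CPM beyond 2000 kb. How far sequence divergence between the clones, or reads placed at repeated copies, took part in these differences was not tested.

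The 28 genes were spread over 16 of the 26 ends. The low-coordinate end of chromosome 12 held 5, all lower in M, and that of chromosome 11 held 3 of its 4 expressed genes, all lower in M. Of these 3, LOC105285038 and LOC105280910 passed the CPM minimum through B groups alone, so they had to be lower in M to some extent. The high-coordinate end of chromosome 6 held 3, all higher in M. The outermost expressed gene lay 0.0 to 215.5 kb from the boundary. It was tested at both ages at 24 ends and called at both at 5 of them (20.8%, beside 3.77% of all genes). Of these 5, LOC113563597 passed the CPM minimum through M groups alone, so it had to differ to some extent. The outermost gene was higher in M at the starts of chromosomes 4 (LOC105283856) and 7 (LOC113562289) and the ends of chromosomes 2 (LOC113563597) and 6 (LOC105284457). It was lower in M at the start of chromosome 12 (LOC105286103).

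**Figure D3:**
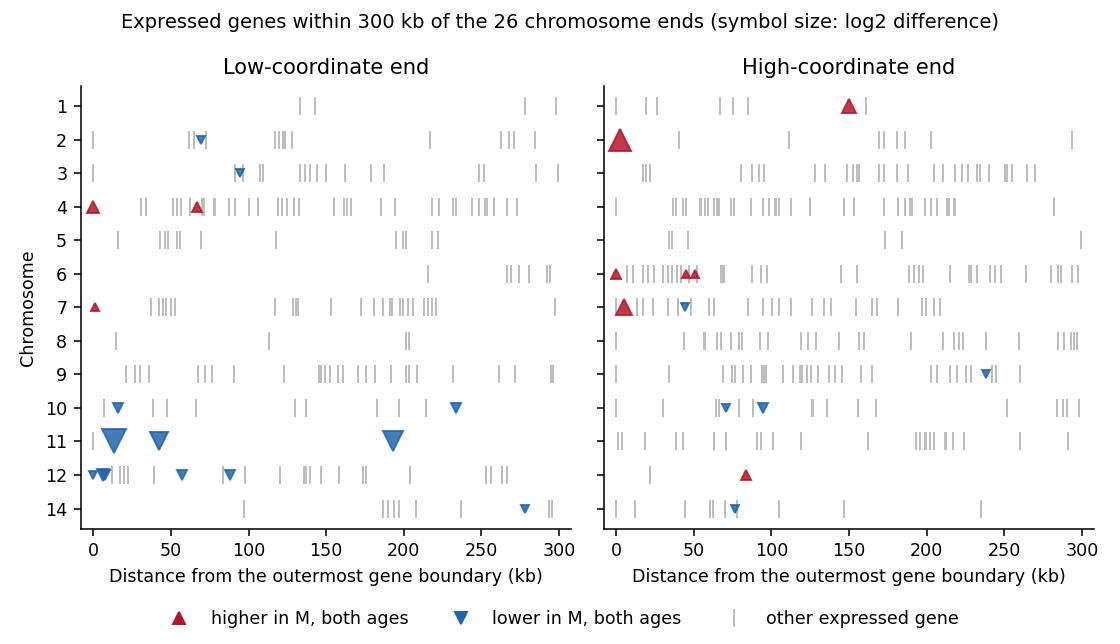
Position of the 478 chromosome-end genes at the low-coordinate (left) and high-coordinate (right) ends of 13 chromosomes, as distance from the outermost gene boundary in kb. Red triangles pointing up are higher in M at both ages, blue triangles pointing down are lower in M at both ages, symbol size grows with the mean log2 fold change, and grey bars are the other genes. Most of the 28 triangles lie within 100 kb, and those of chromosomes 11 and 12 at the left point down.

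Few genes separated the genotypes without overlap between any M and any B brain. This was so for 5 of the 451 chromosome-end genes at day 8 (1.11%, beside 0.443% of all genes), for 6 of 468 at day 1 (1.28%, beside 0.417%) and for 4 of 448 at both ages (0.893%, beside 0.308%). LOC105285038 at day 8 and LOC113563597 at day 1 are counted here although they passed the CPM minimum through 1 genotype alone, which leaves 4 and 5 genes without them. The 4 genes of both ages passed in both genotypes, and all lay within 10 kb of the outermost gene boundary: LOC113561374, LOC105283856 and LOC105284457, higher in M, and LOC105286102, lower in M. In the sentences that follow, CPM values are scaled with TMM factors over all 96 libraries, fold changes are M over B with their standard errors, and genes were named by a rule of size of change.

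LOC113561374 is a protein-coding gene on chromosome 7 (16588031 to 16592433, minus strand), 5.3 kb from the high-coordinate boundary. At day 8 it had 7.12 to 15.9 CPM (median 11.5) in 26 M brains, against 0.630 to 2.31 CPM (median 1.38) in 20 B brains. At day 1 it had 11.6 to 22.9 CPM (median 15.8) in 34 M brains, against 0.431 to 2.94 CPM (median 1.99) in 16 B brains. The lowest M brain of either age thus stood above the highest B brain. The log2 fold change was 3.08 ± 0.12 at day 8 (edgeR adjusted p = 1.35e-25) and 3.01 ± 0.12 at day 1 (adjusted p = 1.32e-26). By rearing, its medians at day 8 were 11.1 CPM in MinM, 11.5 CPM in MinB, 1.41 CPM in BinM and 1.34 CPM in BinB.

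LOC105283856 is the outermost gene at the start of chromosome 4 (22762 to 24749, plus strand) and is protein coding. At day 8 it had 5.49 to 10.5 CPM (median 6.93) in M brains, against 1.56 to 3.12 CPM (median 2.23) in B brains. At day 1 it had 4.84 to 9.31 CPM (median 6.71) in M brains, against 1.25 to 2.69 CPM (median 2.05) in B brains. The genotypes did not overlap at either age, and the log2 fold change was 1.65 ± 0.08 at day 8 and 1.79 ± 0.10 at day 1 (edgeR adjusted p = 4.33e-21 and 3.09e-21).

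LOC105284457, a protein-coding gene, is the outermost at the high-coordinate end of chromosome 6 (16873235 to 16879846, minus strand) and was more abundant. At day 8 it had 142.1 to 210.7 CPM (median 158.1) in M brains, against 82.1 to 106.3 CPM (median 91.2) in B brains. Its day 1 values were 115.5 to 148.9 CPM (median 130.8) in M brains, against 70.8 to 87.1 CPM (median 75.6) in B brains. The log2 fold changes were 0.81 ± 0.04 and 0.75 ± 0.03 (edgeR adjusted p = 7.62e-23 at day 8 and 1.55e-27 at day 1), a difference under 2-fold with no overlap between genotypes at either age.

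The other genes called at both ages at this end of chromosome 6 lay 44.8 and 50.7 kb in. LOC105284471 had medians of 33.5 CPM in M and 24.4 CPM in B at day 8, and of 40.5 CPM in M and 30.2 CPM in B at day 1 (log2 fold change 0.48 ± 0.06 and 0.47 ± 0.05, edgeR adjusted p = 1.18e-08 and 9.61e-10). LOC105284469, on the same strand, had medians of 22.8 CPM in M and 16.2 CPM in B at day 8, and of 33.7 CPM in M and 29.3 CPM in B at day 1. LOC105284471 overlaps LOC105284470 on the opposite strand, and LOC105284469 overlaps both LOC105284470 and LOC105284467. No source used here says whether counting used strand, so reads of these partners may be included, those of LOC105284470 in both genes. In both genes, and at both ages, the ranges of M and B brains overlapped.

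LOC113563597, protein coding and the outermost expressed gene at the high-coordinate end of chromosome 2 (19217723 to 19219230, minus strand), had counts almost only in M. Its mean stayed under 1 CPM, it passed the CPM minimum through M groups alone, and it was named after its values were seen, so its values are a description. At day 8 it had 255 counts over 26 M brains and 1 count over 20 B brains, and at day 1 it had 353 counts over 34 M brains and 2 counts over 16 B brains. The ratio of the pooled rates, M over B, was 206 (95% counting interval 36.7 to 8190) at day 8 and 83.3 (22.9 to 691) at day 1. At day 1 every M brain, at 0.173 CPM or more, stood above every B brain, at 0.0626 CPM or less, while at day 8 1 M brain had no count. LOC105281480, at 149.9 kb from the end of chromosome 1, was as low and was named in the same way: its medians were 0.875 CPM in M and 0.163 CPM in B at day 8, and 0.939 CPM in M and 0.155 CPM in B at day 1.

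Among the other genes higher in M at both ages, differences were smaller and the ranges of the genotypes overlapped. LOC113562289, at the start of chromosome 7 (1273 to 2788), had medians of 59.0 CPM in M and 45.1 CPM in B at day 8, and of 56.3 CPM in M and 42.3 CPM in B at day 1. It overlaps a gene on the opposite strand. LOC113563042, 83.8 kb from the end of chromosome 12, had medians of 6.44 CPM in M and 3.96 CPM in B at day 8, and of 5.93 CPM in M and 4.24 CPM in B at day 1. LOC113561814, 66.5 kb from the start of chromosome 4, had medians of 9.08 CPM in M and 7.32 CPM in B at day 8, and of 8.39 CPM in M and 5.74 CPM in B at day 1. The edgeR adjusted p of these 3 genes lay between 1.23e-07 and 0.0115.

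The largest differences in the other direction were 3 genes at the start of chromosome 11, neighbours among the expressed genes of that end, which formed a run from 27614 to 268344. LOC105285038 and LOC105280910 passed the CPM minimum through B groups alone, so they had to differ, and the run is a description. The mean log2 fold changes of the 3 were between -6.09 and -4.22. The 3 genes are of different kinds: LOC105285038 is an lncRNA 13.5 kb from the boundary, LOC105281691 a miscellaneous RNA at 42.6 kb, and LOC105280910 a protein-coding gene at 193.0 kb. All were low even in B brains, and their levels differ in how completely they were missing from M brains.

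LOC105285038 (27614 to 29283, plus strand) had counts in 1 of 26 M brains and in all 20 B brains at day 8, and in 7 of 34 M brains and all 16 B brains at day 1. In B brains it had 0.307 to 3.36 CPM (median 0.814) at day 8 and 0.0516 to 2.41 CPM (median 0.700) at day 1, and no M brain exceeded 0.112 CPM. Over all brains it had 1 count in M and 370 counts in B at day 8, and 8 counts in M and 260 counts in B at day 1. The ratio of the pooled rates, M over B, was 0.00219 (95% counting interval 5.53e-05 to 0.0123) at day 8 and 0.0145 (0.00621 to 0.0291) at day 1.

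LOC105281691 (56737 to 58832, minus strand) had 0 to 1.26 CPM (median 0.192) in M brains at day 8, against 1.12 to 11.1 CPM (median 4.69) in B brains. Its day 1 values were 0 to 2.48 CPM (median 0.313) in M brains, against 1.73 to 15.2 CPM (median 4.80) in B brains. The genotypes overlapped only by the highest M brain of each age, since the next M brains stood at 0.616 CPM and 0.971 CPM. The log2 fold change was -4.41 ± 0.29 at day 8 and -4.02 ± 0.28 at day 1 (edgeR adjusted p = 5.41e-17 and 8.42e-17).

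LOC105280910 (207174 to 268344, minus strand) had counts in 7 of 26 M brains and all 20 B brains at day 8, and in 5 of 34 M brains and all 16 B brains at day 1. The median of M brains was 0 at both ages, against medians of 1.66 CPM at day 8 and 0.604 CPM at day 1 in B brains. The ratio of the pooled rates, M over B, was 0.0490 (95% counting interval 0.0345 to 0.0677) at day 8 and 0.0417 (0.0234 to 0.0696) at day 1. Of the M brains with counts, 5 at day 8 and all 5 at day 1 were reared in M colonies. The environment difference of this gene was not called, at 0.98 ± 0.47 on the log2 scale at day 8 and 1.51 ± 0.51 at day 1 (edgeR adjusted p = 0.998 and 0.694). The gene overlaps others on both strands, so its counts may hold reads of its neighbours. The counting intervals of this gene, LOC105285038 and LOC113563597 pool the reads of all brains of a genotype. They cover counting error alone and leave out the spread between brains. The labels name no molecular identifiers, so reads and not molecules were counted.

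**Figure D4:**
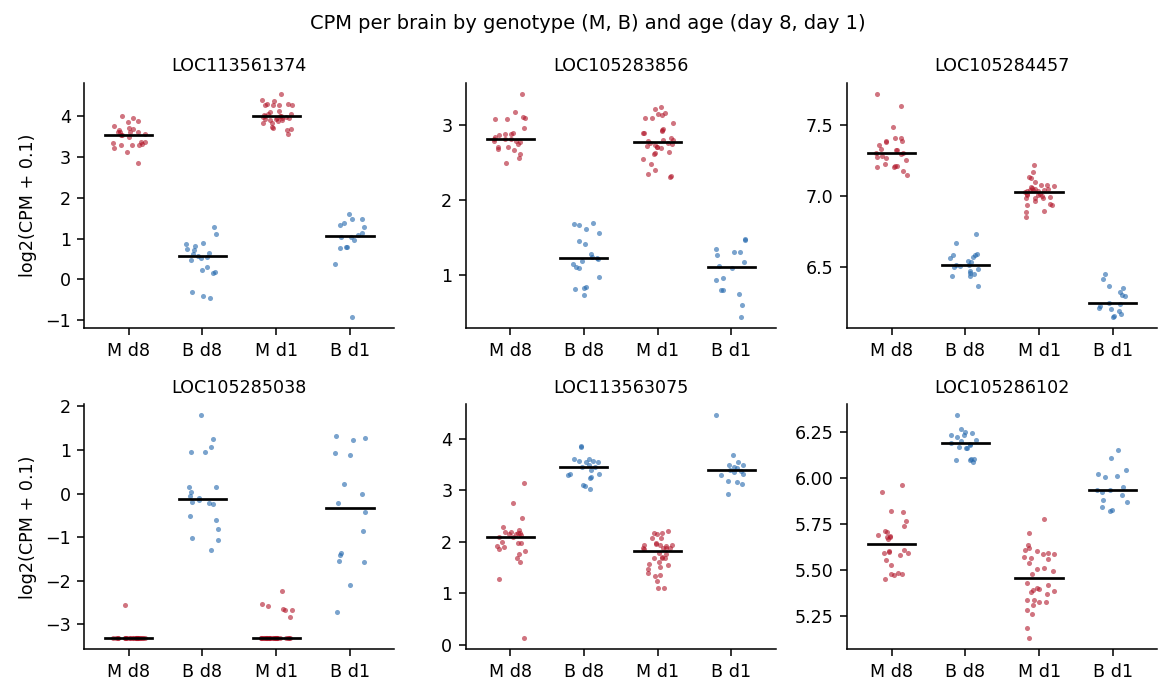
Expression of 6 chromosome-end genes as log2 of CPM plus 0.1 (vertical axes) in M and B brains at day 8 (d8) and day 1 (d1). Each point is 1 brain and each bar the group's median. The upper 3 genes are higher in M with no overlap, LOC105285038 is at or near 0 CPM in M, LOC113563075 overlaps by 1 M brain at day 8, and LOC105286102 is lower in M with no overlap.

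The start of chromosome 12 held a second run, in which the 3 outermost expressed genes were lower in M at both ages, all protein coding and all on the minus strand, from 13917 to 25590. The middle gene had the largest difference. LOC113563075 (19936 to 21265) had 0.993 to 8.75 CPM (median 4.16) in M brains at day 8, against 8.03 to 14.5 CPM (median 10.9) in B brains. Its day 1 values were 2.04 to 4.50 CPM (median 3.44) in M brains, against 7.53 to 21.8 CPM (median 10.4) in B brains. The genotypes were separate at day 1 and overlapped by 1 M brain at day 8, with log2 fold changes of -1.37 ± 0.12 and -1.72 ± 0.10 (edgeR adjusted p = 9.49e-13 at day 8 and 1.24e-20 at day 1).

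Its inner neighbour LOC105286102 (21364 to 25590) had 43.7 to 62.1 CPM (median 49.8) in M brains at day 8, against 67.8 to 80.8 CPM (median 72.8) in B brains. Its day 1 values were 34.9 to 54.7 CPM (median 43.8) in M brains, against 56.4 to 70.9 CPM (median 61.0) in B brains. The genotypes did not overlap at either age, although the log2 fold change was -0.53 ± 0.03 at day 8 and -0.49 ± 0.04 at day 1 (edgeR adjusted p = 3.04e-17 and 7.26e-14). The outermost gene LOC105286103 (13917 to 19529) differed less. Its medians were 87.0 CPM in M and 104.0 CPM in B at day 8, and 72.8 CPM in M and 90.0 CPM in B at day 1, with overlapping ranges and log2 fold changes of -0.30 ± 0.04 and -0.28 ± 0.03 (edgeR adjusted p = 1.86e-08 and 2.72e-09).

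Farther in at the same end, 2 more genes were lower in M. LOC105286109, at 57.0 kb, was abundant, with medians of 176.5 CPM in M and 232.9 CPM in B at day 8, and of 269.9 CPM in M and 437.2 CPM in B at day 1. LOC105286112, at 87.9 kb, had medians of 3.57 CPM in M and 6.05 CPM in B at day 8, and of 5.27 CPM in M and 7.31 CPM in B at day 1. Both overlapped between the genotypes. No gene of this end was called higher in M at either age, beside 6 called lower at day 1 and 5 at day 8.

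Chromosome 10 had genes called at both ages at each of its ends, all of these lower in M. LOC105288099, at 15.7 kb from the start, had medians of 6.65 CPM in M and 10.2 CPM in B at day 8, and of 5.95 CPM in M and 11 CPM in B at day 1 (log2 fold change -0.60 ± 0.07 and -0.83 ± 0.07, edgeR adjusted p = 1.64e-09 and 2.09e-13). LOC105281519, at 233.7 kb from the start, had medians of 5.02 CPM in M and 9.75 CPM in B at day 8, and of 6.64 CPM in M and 8.15 CPM in B at day 1. At the high-coordinate end, LOC105286670 had medians of 81.9 CPM in M and 124.2 CPM in B at day 8, and of 99.5 CPM in M and 137.5 CPM in B at day 1 (edgeR adjusted p = 2.32e-07 and 0.00805). The ranges of the genotypes overlapped in these genes, and LOC105281519 overlaps genes on both strands.

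The remaining 7 genes lower in M at both ages were LOC105286667, LOC105282839, LOC105274809, LOC105287033, LOC105285503, LOC105279458 and LOC105277462, on chromosomes 10, 7, 14, 2, 14, 9 and 3. Their mean log2 fold changes lay between -0.47 and -0.18, which is 1.39-fold to 1.13-fold lower in M. The ranges of the genotypes overlapped in each at both ages. These 7 genes fall outside the rule of size and are listed to complete the 28.

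A difference between genotypes could also depend on age. In the fit of all 96 libraries, the genotype difference at day 8 differed from that at day 1 for 28 of 477 chromosome-end genes (5.87%), 23 toward M and 5 toward B at day 8, beside 6.39% of all genes (3.85% toward M, 2.55% toward B). Of the 28, 16 were called between genotypes at day 1 but not at day 8, and 2 at day 8 alone. Without the 9 libraries that stood apart the count fell to 5 of 475 (1.05%, beside 1.12% of all genes). The split was then 2 toward M and 3 toward B at day 8, so the excess toward M was not kept. Of these 5 genes, 4 were among the 28. The 3 genes with the lowest p were LOC105284463, LOC105281519 and LOC105284469.

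LOC105284463, 33.2 kb from the high-coordinate end of chromosome 6, had medians of 77.8 CPM in M and 74.3 CPM in B at day 8, and of 50.4 CPM in M and 36.2 CPM in B at day 1. The log2 fold change of M over B was 0.04 ± 0.04 at day 8 and 0.54 ± 0.06 at day 1, and the difference between them was -0.50 ± 0.07 (edgeR adjusted p = 1.14e-06). LOC105281519 had the larger genotype difference at day 8, where its log2 fold change was -1.08 ± 0.10, against -0.28 ± 0.07 at day 1 (difference -0.80 ± 0.13, edgeR adjusted p = 2.31e-05). LOC105284469 was higher in M by 0.47 ± 0.05 at day 8 and by 0.16 ± 0.05 at day 1 (difference 0.30 ± 0.07, edgeR adjusted p = 0.00971). These 3 differences were called in every alternative fit that tested the gene, that without the 9 libraries included.

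The rearing comparison asked whether brains from M colonies differed from brains from B colonies. No chromosome-end gene was called between M and B environments at day 8 or at day 1 by edgeR, beside 0.0% and 0.0102% of all genes, and none by DESeq2 or limma-voom. At an unadjusted p under 0.05 there were 19 of 451 genes at day 8 and 36 of 468 at day 1, beside 3.32% and 6.66% of all genes. The 95% interval of the environment difference lay within 1.5-fold for 90.5% of the genes at day 8 and for 85.9% at day 1, beside 89.3% and 86.1% of all genes. For the 28 genotype genes the environment log2 fold change lay between -0.556 and 0.984 at day 8 and between -0.567 and 1.51 at day 1, with median absolute values of 0.0536 and 0.0787.

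For environment at day 8 the lowest p was that of LOC105282789, 207.7 kb from the start of chromosome 14. It had 0.697 to 5.78 CPM (median 1.63) in the 24 brains from M colonies, against 0.651 to 10.3 CPM (median 3.14) in the 22 brains from B colonies, with wide overlap. The log2 fold change was -1.0 ± 0.29 and the edgeR adjusted p 0.998. Its medians at day 1, 5.61 CPM in M colonies and 5.83 CPM in B colonies, lay close together.

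At day 1 the lowest p was that of LOC105279483, a protein-coding gene 33.8 kb from the high-coordinate end of chromosome 9 (15605082 to 15639359), and it rested on few brains. In 6 libraries it reached 15930 CPM or more, while no other library exceeded 426.1 CPM. At day 1 these were 3 MinM and 2 BinM brains, so that brains from M colonies ranged from 214.5 to 27691 CPM (median 292.5), against 211.4 to 386.9 CPM (median 281.4) in brains from B colonies. The log2 fold change was 3.79 ± 0.80 (edgeR adjusted p = 0.0552), and without the highest library 3.25 ± 0.74 (adjusted p = 0.149). The sixth library, at 17272 CPM, was 1 MinB brain of day 8, and it alone set the call of this gene between genotypes at day 8, with a log2 fold change of 1.56 ± 0.46 (edgeR adjusted p = 0.0215) with it and -0.02 ± 0.04 (adjusted p = 0.771) without it. Without that brain 42 chromosome-end genes were called between genotypes at day 8. What these 6 ants shared was not tested.

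A genotype difference that depends on the environment was not called for any chromosome-end gene by DESeq2 or limma-voom. Of all genes, DESeq2 called 0.0102% at day 1 and 0.0% at day 8, and limma-voom 0.0% at either age. By edgeR no chromosome-end gene was called either, beside 0.0% of all genes at either age. At an unadjusted p under 0.05 there were 8 of 451 genes at day 8 and 26 of 468 at day 1, beside 2.35% and 6.24% of all genes. The lowest p at day 8 was again that of LOC105279483 (-3.18 ± 0.89, edgeR adjusted p = 1.0), which was -0.01 ± 0.08 without the MinB brain. At day 1 it was that of LOC105277830, 212.1 kb from the end of chromosome 11 (-0.41 ± 0.14, edgeR adjusted p = 0.723).

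Age had the broadest effect. Between day 8 and day 1, 359 of the 477 genes tested were called (75.3%), 182 higher and 177 lower at day 8, beside 73.1% of all genes (37.6% higher, 35.4% lower). Scaled to library totals, the split was 246 higher and 126 lower, with a median over all genes of 0.143 on the log2 scale in place of 0.014. Larger changes were mostly falls: 14 genes were called at least 2-fold higher at day 8 (2.94%, beside 3.46% of all genes) and 34 at least 2-fold lower (7.13%, beside 6.29%), and 1 was at least 4-fold higher and 11 at least 4-fold lower, beside 0.527% and 2.16% of all genes. These shares were near those of all genes. The CPM minimum was passed at day 1 alone by 19 genes and at day 8 alone by 7. Those 19 had to be lower at day 8 to some extent, and those 7 higher. Among genes that passed at both ages, 339 of 452 were called (75.0%), 179 higher and 160 lower at day 8. The counts of 2-fold and 4-fold changes were not limited in this way, so part of the falls may come from the selection. The 2 ages carry different forms of title in the labels and may have been handled as separate sets, so age and set cannot be told apart.

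The 2 falls described next were in genes that varied widely among brains of day 1. LOC105281465, 19.2 kb from the high-coordinate end of chromosome 1, had 1.37 to 4.25 CPM (median 2.46) in the 46 brains of day 8, against 2.40 to 272.4 CPM (median 31.8) in the 50 brains of day 1 (log2 fold change -3.99 ± 0.29, edgeR adjusted p = 2.08e-22). LOC113561373, the outermost gene at the high-coordinate end of chromosome 7, had 0.0663 to 21.9 CPM (median 1.75) at day 8, against 0.503 to 103.2 CPM (median 13.4) at day 1 (log2 fold change -3.29 ± 0.29, edgeR adjusted p = 4.07e-18). The ages overlapped in both genes, and some brains of day 1 were as low as those of day 8. For LOC113561373 the highest brain of day 8, at 21.9 CPM, also stood above the day 1 median.

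LOC113561373 lies beside LOC113561374, the gene with no overlap between M and B described above. Between genotypes LOC113561373 was not called, with log2 fold changes of 0.76 ± 0.37 at day 8 and -0.21 ± 0.39 at day 1 (edgeR adjusted p = 0.222 and 0.751). Between ages LOC113561374 was lower at day 8 by a log2 fold change of -0.52 ± 0.08 (edgeR adjusted p = 4.56e-09).

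The other large falls were LOC113561372, 201.4 kb from the start of chromosome 8, LOC105283565, 266.6 kb from the start of chromosome 4, LOC105282831, 112.7 kb from the end of chromosome 7, and LOC105277824, 212.3 kb from the end of chromosome 11. Their medians were 0, 0.0943, 1.04 and 0.279 CPM at day 8, against 0.989, 0.714, 7.09 and 2.21 CPM at day 1. LOC113561372 had counts in 22 of 46 brains at day 8, against 49 of 50 at day 1. The highest day 8 group mean was 0.091 CPM for LOC113561372, 0.192 CPM for LOC105283565 and 0.419 CPM for LOC105277824. These 3 genes thus passed the CPM minimum through day 1 alone. They had to be lower at day 8 to some extent, so their falls are a description. LOC105277824 overlaps LOC105277830 on the opposite strand, which rose by 0.30 ± 0.05 (edgeR adjusted p = 2.26e-08) while LOC105277824 fell by 2.73 on the log2 scale (SE 0.20, edgeR adjusted p = 2.11e-22).

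**Figure D5:**
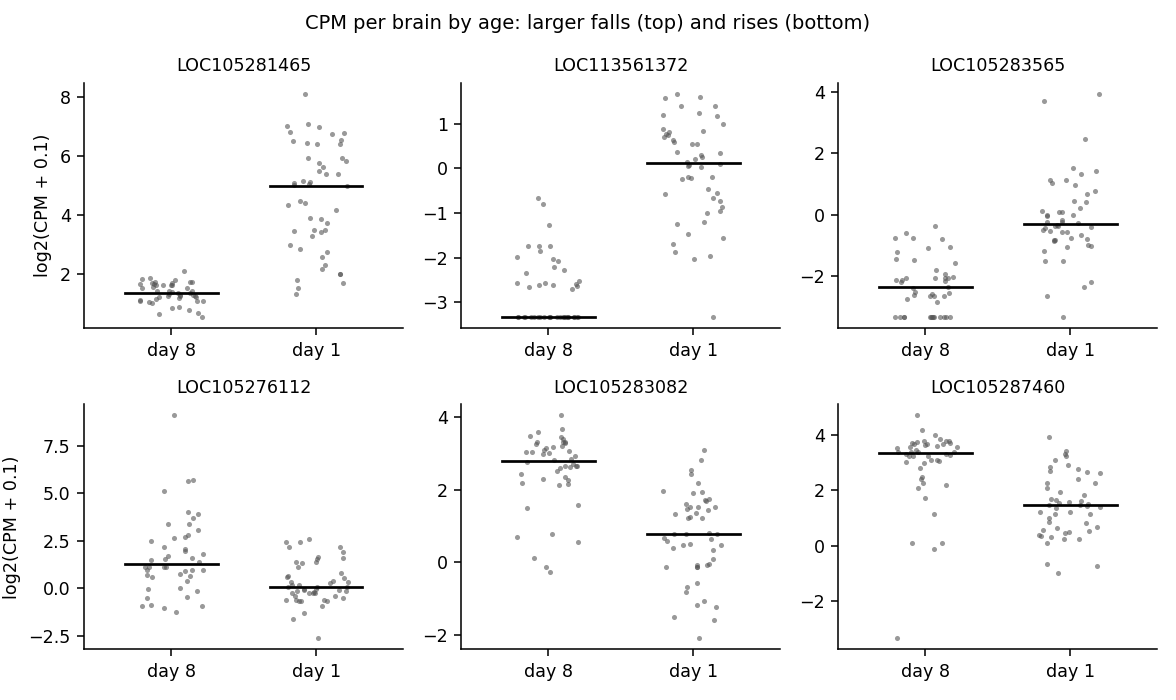
Expression of 6 chromosome-end genes as log2 of CPM plus 0.1 (vertical axes) in brains of day 8 and day 1. Each point is 1 brain and each bar the median. The upper 3 genes were lower at day 8 and the lower 3 higher at day 8, and in each the ages overlap. Among the upper genes, LOC113561372 and LOC105283565 passed the CPM minimum through day 1 alone.

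The largest rise by fold was that of LOC105276112, 261.4 kb from the start of chromosome 9, and its size rested partly on 1 brain. It had 0.313 to 547.3 CPM (median 2.28) at day 8, against 0.0607 to 5.90 CPM (median 0.934) at day 1. The log2 fold change was 2.73 ± 0.44 (edgeR adjusted p = 5.83e-08), and 1.94 ± 0.35 (adjusted p = 5.25e-07) without 1 MinM brain at 547.3 CPM. At the start of chromosome 5, 2 adjacent genes also rose, with overlap between the ages. Of the 46 brains of day 8, 13 stood above every brain of day 1 for LOC105276112, 15 for LOC105283082 and 3 for LOC105287460. LOC105287460 had a median of 9.92 CPM at day 8, against 2.66 CPM at day 1 (log2 fold change 1.67 ± 0.23), and LOC105283082 a median of 6.82 CPM at day 8, against 1.60 CPM at day 1 (1.82 ± 0.23).

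Among the 6 largest rises, LOC105279490 and LOC105277456 had the least overlap. LOC105279490, 81.5 kb from the end of chromosome 9, had a median of 3.52 CPM at day 8, against 1.22 CPM at day 1 (log2 fold change 1.62 ± 0.12, edgeR adjusted p = 1.75e-23), and 43 of 46 brains of day 8 stood above every brain of day 1. LOC105277456, 136.6 kb from the start of chromosome 3, had 268.1 to 710.4 CPM (median 484.6) at day 8, against 107.6 to 286.7 CPM (median 179.1) at day 1 (1.44 ± 0.06, adjusted p = 2.86e-37), and 45 of 46 brains of day 8 stood above every brain of day 1. LOC105277459, at 150.1 kb from the same end, had medians of 149.3 CPM at day 8 and 53.8 CPM at day 1 (1.36 ± 0.13, adjusted p = 9.89e-17). Of the 28 genes that differed between genotypes at both ages, 18 also changed with age (64.3%, beside 73.1% of all genes), 9 of them higher at day 8.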

How the data were processed

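The authors deposited whole-number read counts per gene for 96 libraries, and the counts were not normalised. Per the labels' protocols, RNA was extracted with Tri reagent and made into libraries with a stranded KAPA mRNA kit. Per the submitters' processing notes, STAR 2.7.8a and featureCounts were used; the sources used here do not give the strand setting, the treatment of reads with several alignments or the build. Every chromosomal gene span (100%) was identical in RefSeq's Obir_v5.4 annotation, so chromosome numbers and gene classes come from it and coordinates from the deposited table.

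The genes, lists and naming rule were chosen with earlier results of these data known. The CPM of the selection rule divides counts by the library total; CPM in the text is scaled with TMM factors over all libraries. Calls come from edgeR 4.0.16 (R 4.3.3) quasi-likelihood tests on all genes, with TMM, filterByExpr (minimum count 10) and Benjamini-Hochberg adjustment: a 4-group model per age (9472 genes at day 8, 9834 at day 1) and an 8-group model (10056 genes). Contrasts average over the other factors, and adjusted p-values without another tool named are edgeR's. Of the 478 genes, 27 were not tested at day 8, 10 at day 1 and 1 between ages. Standard errors come from the F statistics, and the procedure was tested on simulated data. Alternatives were DESeq2 1.42.0, limma-voom (limma 3.58.1), other scalings and filters, windows of 150 and 600 kb, no CPM minimum, genes overlapping no other gene, and fits without outlying libraries or with the replicate number as a block. Named genes were the 10 largest genotype changes in each direction among genes called at both ages with a mean of at least 1 CPM, runs of 3 or more neighbours, the lowest p for environment and interaction, the 6 largest rises and 6 largest falls with age, and the 3 lowest p for genotype by age.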

Additional observations from a re-analysis of the deposited data

Results flagged for a closer look

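The 4 groups with 10 or fewer libraries, all of genotype B, were searched for single libraries far from the others. The M groups were larger and were not searched, and single high M brains of LOC105279483 and LOC105276112 are described above. Within the named genes, 16 of 136 gene and group pairs (11.8%) held such a library; the criterion used has a nominal rate of about 1 in 20 groups by chance. Group means there rest partly on that library, and the cause was not tested. In replicate 9 of BinB at day 1, LOC113561814 stood at 12.5 CPM (others 5.03 to 6.34), LOC113562289 at 98.2 CPM (36.9 to 47.9), LOC113563075 at 21.8 CPM (8.65 to 11.6), LOC105279483 at 386.9 CPM (236.6 to 294.6) and LOC105277830, low, at 25.5 CPM (41.3 to 48.7). This library is among the 9 that stood apart over all genes. In other BinB brains of day 1, LOC105285038 reached 2.32 CPM in replicate 6 (others 0.0516 to 0.891) and LOC105283565 reached 15.1 CPM in replicate 2 (0.252 to 1.26).

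Among BinM brains of day 1, LOC105282831 stood at 38.5 CPM in replicate 6 (others 3.20 to 20.4) and LOC105276112 at 5.27 CPM in replicate 8 (0.593 to 1.63). At day 8 the high BinM brains were replicate 4 for LOC113563042 (7.01 CPM, others 2.41 to 4.59), replicate 2 for LOC105284469 (22.4 CPM, 14.9 to 18.5), replicate 10 for LOC105286112 (11.9 CPM, 2.41 to 7.33) and replicate 7 for LOC105282789 (5.78 CPM, 0.714 to 2.91). BinB replicate 7 of day 8 was high for both LOC105286109 (396.6 CPM, others 219.2 to 293.0) and LOC105286670 (184.4 CPM, 105.9 to 132.9). BinB replicate 3 of day 8 was high for LOC105283565 (0.560 CPM, others 0 to 0.235).

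The genotype difference changed with age for 3 named genes, by the test of that difference in edgeR: LOC105284469 (0.30 on the log2 scale, day 8 minus day 1), LOC105281519 (-0.80) and LOC105284463 (-0.50).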

How the results depend on the processing

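Counts of called genes moved by over 1.5 times with the filter, the window and a few fits, and the cause was not tested beyond the number of genes each leaves. With the stricter filter, which tests fewer genes, 27 of 357 genes were called between genotypes at day 8 (7.56%, beside 7.14% of all genes). At day 1 it was 52 of 350 (14.9%, beside 14.7%), and at both ages 14 of 342 (4.09%, beside 2.91%). Under 100 kb, 13 of 121 were called at both ages (10.7%, beside 2.91%). As reported, these counts were 43, 83, 28 and 23. In a 150 kb window 55 of 258 were called between genotypes at day 1 (21.3%, beside 14.8% of all genes). Between ages it was 194 of 260 (74.6%, beside 73.1%), and for genotype by age 17 of 260 (6.54%, beside 6.39%). In a 600 kb window 78 of 889 were called between genotypes at day 8 (8.77%, beside 8.45%). At day 1 it was 156 of 921 (16.9%, beside 14.8%), and at both ages 43 of 883 (4.87%, beside 3.77%). Between ages it was 694 of 936 (74.1%, beside 73.1%), and for genotype by age 67 of 936 (7.16%, beside 6.39%). Among genes that overlap no other, 231 of 305 were called between ages (75.7%, beside 73.1% of all genes, overlapping or not). For genotype by age it was 15 of 305 (4.92%, beside 6.39%). As reported, these counts were 359 and 28. For genotype by age limma-voom called 17 of 477 (3.56%, beside 3.83%) and the fit without outlying libraries 5 of 475 (1.05%, beside 1.12%).

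For environment at day 1, library totals and no filter each called 1 gene, LOC105279483 (log2 fold change 3.78 and 3.79, edgeR adjusted p = 0.0469 and 0.0429). Without outlying libraries 1 gene was called, LOC105280335 (98.0 kb from the end of chromosome 8, log2 fold change -2.58, adjusted p = 0.0192), named after its values were seen. With all libraries it stood at -2.31 (adjusted p = 0.0753), and without BinB replicate 2 of day 1, at 42.8 CPM, at -0.27 (adjusted p = 0.871). Fits without a gene's highest library, and counts limited to genes that passed in both genotypes or at both ages, were added after seeing the data. In 1 such fit a called value lost its call and turned sign: LOC105279483 between genotypes at day 8 was -0.02 (adjusted p = 0.771) without MinB replicate 7.

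Deviations of same-numbered day 1 libraries from their group means had a median correlation of 0.0473 over 52 pairs (lowest -0.463). For pairs of other numbers it was -0.00298 over 835 pairs. Of the same-numbered pairs, 38.5% had a correlation over 0.1. A low median cannot tell whether the numbers mark something that libraries shared. At day 8 the numbers follow accession order. With the replicate block at day 1, 58 of 468 genes were called between genotypes at day 1 (12.4%, beside 10.1% of all genes). For environment or interaction 0 were called, and LOC105284469 lost its call between genotypes (0.14, edgeR adjusted p = 0.0759). Of 399 pairs of a named gene and another setting, 396 kept direction and call. Of the 28 genes called at both ages, DESeq2, limma-voom, both other scalings and no filter kept 28, and the fit without outlying libraries 26. Genes under about 10 counts a library could not be tested, and CPM near 0.05 rest on single reads.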
